A study of Mus musculus with 2 samples.

Results

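The semaphorin, slit and netrin families of guidance genes were followed in a comparison of embryonic mouse brain labelled KO (knockout) with brain labelled WT (wild type). The set held 40 genes chosen by name, with earlier results of these data known. They covered secreted and membrane-bound semaphorins, their plexin and neuropilin receptors, slits and robos, and netrin-1 with its receptors Dcc and Unc5a to Unc5d. All 40 were found among the 18194 genes named on the array, on 95 probe sets, and the brightest probe set of a gene, by its mean over both arrays, stood for that gene. Total RNA came from 1 KO and 1 WT sample at stage E10.5, both of strain C57BL/6, and each was hybridised to 1 Affymetrix 3′ expression array. The knocked-out gene, its allele, the sex of the embryos and any pooling of embryos are not given in the labels, and the samples are titled as embryo while their tissue is given as brain. With 1 array a group there is no replicate error, and no difference below could be tested. Each is a difference between these arrays, taken as KO minus WT on the log2(signal + 16) scale, which understates the differences of dim genes.

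Guidance molecules steer growing axons and migrating cells. Class 3 semaphorins are secreted and mostly bind neuropilins, which pair with A-type plexins to pass the signal on, while most membrane-bound semaphorins bind plexins directly. Slits are secreted repellents read by robo receptors, and netrin-1, made by the floor plate of the neural tube, attracts axons through Dcc and repels them through Unc5 receptors. At this stage the first axon tracts of the brain are being laid down, and several of these molecules also act outside axons, in blood vessels, neural crest and head mesenchyme.

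The labelled tissue was checked against markers, and the arrays differed in ways that stand beside every result on the guidance genes. All 10 neuronal and all 11 neural progenitor markers passed the level filter, which asks for a signal of 41.6 or more in the higher array, and so did 8 of 10 head mesenchyme and 9 of 11 endothelial markers. Floor plate markers did not, at 0 of 6 measured. Xist read 2023 in KO and 5.19 in WT and the Y-linked Eif2s3y 0.27 and 254, so the arrays differ in sex-linked RNA just as they do in genotype label. All 11 macrophage markers were lower in KO, with summed signals of 205 against 565. Genes of the midbrain-hindbrain junction, chosen for mention after their values were known, were higher, with Fgf8 at 103 against 18.2 and En2 at 1291 against 761. The part these differences had in the values of the guidance genes was not tested.

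The guidance genes as a group showed no common direction. Of the 40, 23 passed the level filter, 11 of them higher and 12 lower in KO. Lower genes thus made up 52.2% of the members passing, against 50.2% of the 9297 genes passing in all. The median difference was -0.036 over the 23 members and -0.00055 over all genes passing. Over all 40 members, whatever their level, 20 were lower and the median was -0.015. Over all 18194 named genes, 9039 were lower and the median was 0.0011. Of the 23, 3 (Sema3a, Sema3c and Sema4a) passed through the KO array alone, where they are higher, and 0 through WT alone. None of the 23 was 2-fold apart, a distance that 0.237% of all genes passing reached upwards in KO and 0.0968% downwards. At 1.5-fold, 1 member was higher (Sema3a) and 1 lower (Sema3f), against 0.85% and 0.602% of all genes, and counts this small cannot be set apart from that background. As a description with no test, of the 23, 13 (56.5%) lay within 0.2 log2 units of 0, against 81.3% of all genes passing and 75.5% when all genes are weighted to the members' brightness over 4 equal level bins, 12 of the 23 being in the dimmest bin. In bulk RNA, fewer cells that express a gene and less RNA per cell cannot be told apart.

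**Figure D1:**
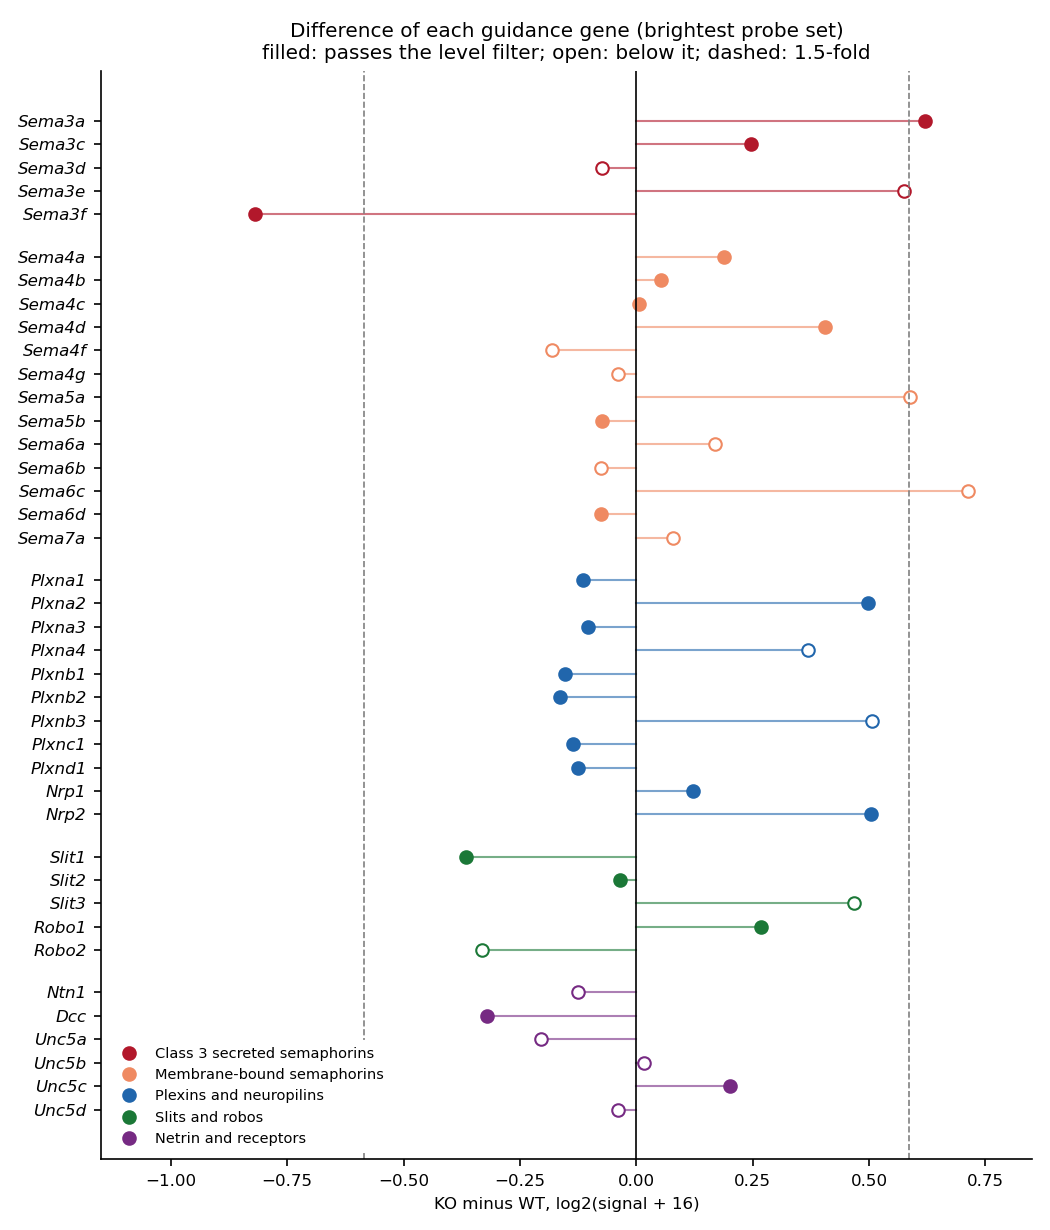
Difference between the arrays (KO minus WT, log2(signal + 16)) for each of the 40 guidance genes on its brightest probe set, grouped by role, with filled points for the 23 genes passing the level filter and open points for the 17 below it. Sema3a (0.62) and Sema3f (-0.82) are the filled points beyond the dashed 1.5-fold lines, and 6 plexins sit close together just below 0.

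**Figure D2:**
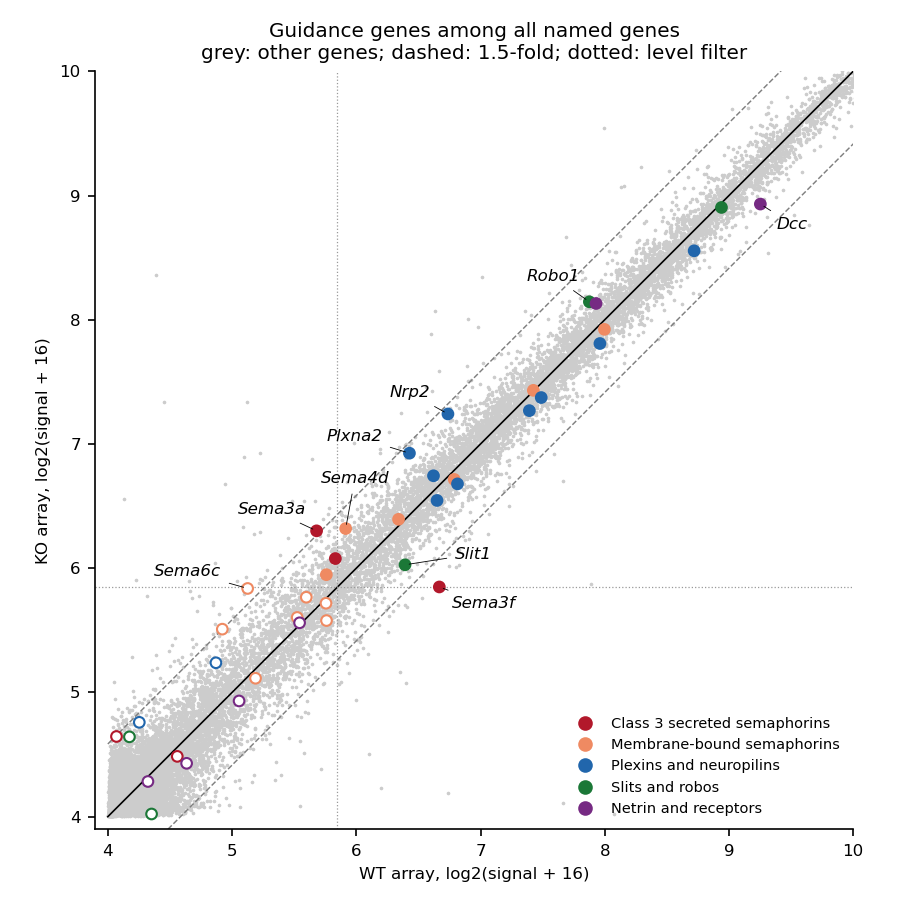
Signal of each guidance gene in the WT array (horizontal) and the KO array (vertical), both as log2(signal + 16), over all other named genes in grey, with both axes drawn up to 10. Most members lie along the diagonal within the dashed 1.5-fold lines, Nrp2, Plxna2 and Sema3a lie above it and Sema3f below it.

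Among the secreted class 3 semaphorins, Sema3a and Sema3f lay farthest from 0 in opposite directions, and the probe sets of Sema3f disagreed. Sema3a, the collapsing ligand that binds neuropilin-1, read 62.9 in KO and 35.3 in WT, a difference of 0.62 (1.54-fold on this scale). Its other probe sets were dim, at 26.2 against 17.8 (0.32) and 3.95 against 0.67 (0.26). All 3 were thus higher in KO, though only the first passed the filter, and it did so through the KO array alone.

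Sema3f, the ligand that binds neuropilin-2, read 41.7 in KO and 85.7 in WT on its brightest probe set, a difference of -0.82 (1.76-fold lower). Its remaining probe sets read 40.5 against 29.9 (0.30) and 24.5 against 15.5 (0.36), both below the filter and both higher in KO. The brightest one carries the suffix _x_at, which Affymetrix gives to probe sets with probes that can match other transcripts. On these arrays the direction of Sema3f is therefore not settled: the mean over its 3 probe sets was -0.053, and which of them follows the Sema3f transcript was not tested. Sema3c, a semaphorin of neural crest and vessels, read 51.6 against 40.9 (0.25) and was higher on both of its probe sets. Sema3d and Sema3e stayed below the filter, with no signal above 10 on any probe set.

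**Figure D3:**
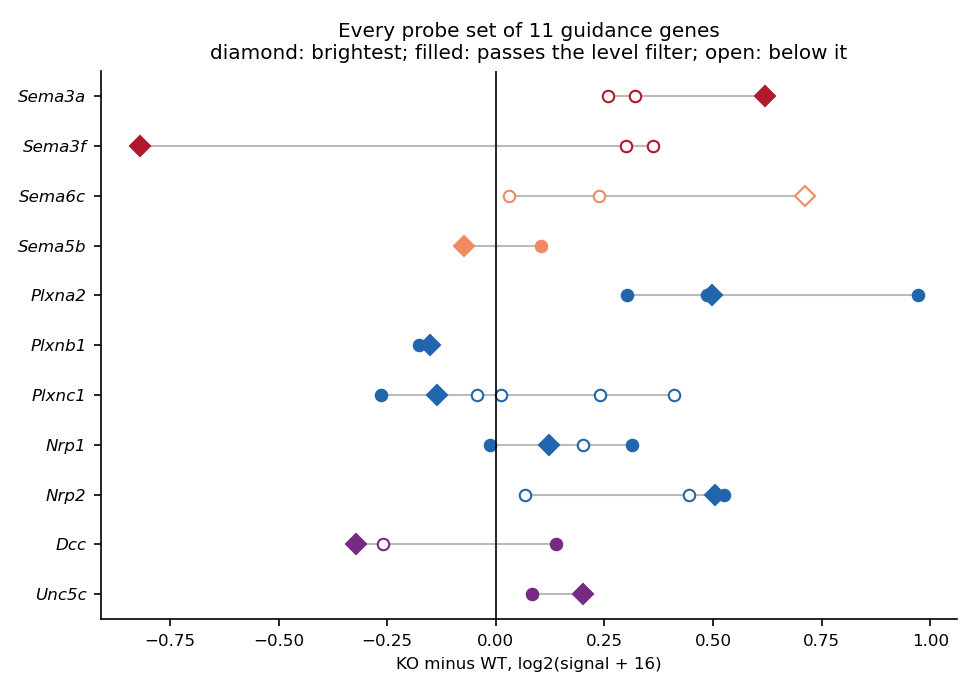
Difference between the arrays on every probe set of 11 guidance genes, with a diamond for the brightest probe set, filled symbols for those passing the level filter and open ones for those below it. The probe sets of Plxna2, Nrp2, Sema3a, Sema6c and Unc5c all lie to the right of 0, while those of Sema3f, Dcc, Sema5b, Nrp1 and Plxnc1 fall on both sides.

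Nrp2 and Plxna2, receptors of the class 3 ligands, were higher in KO on every probe set, as were other members such as Sema3a, Sema3c and Unc5c. Nrp2, the neuropilin that binds Sema3f, read 135 in KO and 90.7 in WT on its brightest probe set, a difference of 0.50. Its second probe set read 48.0 against 28.5 (0.52), passing the filter through the KO array alone. The dimmer ones, both below the filter, read 36.2 against 22.3 (0.44) and 1.2 against 0.42 (0.067), the last near background. All 4 were higher in KO, and in the second level bin, where Nrp2 lies, 1.55% of genes were at least as far from 0. Plxna2, an A-type plexin that pairs with neuropilins and also binds membrane-bound semaphorins of class 6, read 106 against 70.1 (0.50) on its brightest probe set. The other 3 read 105 against 70.2 (0.49), 67.2 against 26.4 (0.97) and 56.6 against 42.8 (0.30). All 4 were higher in KO, and the probe set at 67.2 passed the filter through the KO array alone. In the dimmest level bin, where Plxna2 lies, 6.24% of genes were at least as far from 0 as its brightest probe set. For comparison, the differences of a gene's probe sets scattered around their own mean with a pooled SD of 0.16, from 3628 genes that had several above the filter. It measures probe noise and says nothing about animals.

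Nrp1, the neuropilin of Sema3a and also a receptor for the vessel growth factor VEGF, differed less. It read 91.2 against 82.4 (0.12) on the brightest probe set, 69.2 against 52.5 (0.31) on the next and 44.6 against 45.1 (-0.015) on the last that passed. Its dim probe set read 15.6 against 11.4 (0.20). It was thus higher in KO on 3 of 4 probe sets and level on the other, and the difference between Nrp1 and Nrp2 was not tested.

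On their brightest probe sets, the 6 other plexins that passed the filter lay in a narrow band below 0, from -0.16 to -0.10. Plxna1 read 150 against 164 (-0.11), Plxna3 77.4 against 84.4 (-0.10) and Plxnd1, a plexin known from blood vessels, 138 against 152 (-0.12). Plxnb1 and Plxnb2, receptors of class 4 semaphorins, read 208 against 233 (-0.15) and 360 against 405 (-0.16), and Plxnc1, the receptor of Sema7a, read 86.5 against 96.5 (-0.14). Differences of this size were common: at least 20.7% of genes in the same level bin were as far from 0 as any of these. Plxnb1 was lower on both probe sets (-0.15 and -0.18), whereas the 6 probe sets of Plxnc1 ran from -0.27 to 0.41, the higher ones among them dim. The second probe set of Plxna3, below the filter, was higher in KO at 26.9 against 25 (0.064). That of Plxna1, near background, was lower at 1.03 against 2.75 (-0.14). Plxna3 lies on the X chromosome, as does Plxnb3, beside the Xist difference given above. Of the 9 endothelial markers passing the filter, 8 were lower and 1 higher in KO, with a median of -0.045. They include Kdr at 152 against 171 (-0.16), Emcn at 99.1 in both arrays and Eng at 64.3 against 51.2 (0.25). What part these had in the values of Plxna3 and Plxnd1 was not tested. Plxna4 (21.8 against 13.2) and Plxnb3 (11.1 against 3.07, 0.51) did not pass the filter.

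The promoters of Sema3a, Nrp2 and Plxna2 are shown because these are the genes passing the filter with the largest differences among members that have a single promoter entry, and all were higher in KO. Each sequence is the 250 bases before the annotated start, from RefSeq on build GRCm38.p6, with GC boxes (GGGCGG on either strand, the site of Sp1-type factors) in capitals. They lie at chr5:13396534-13396783, chr1:62703067-62703316 and chr1:194619579-194619828, all on the plus strand.
Sema3a: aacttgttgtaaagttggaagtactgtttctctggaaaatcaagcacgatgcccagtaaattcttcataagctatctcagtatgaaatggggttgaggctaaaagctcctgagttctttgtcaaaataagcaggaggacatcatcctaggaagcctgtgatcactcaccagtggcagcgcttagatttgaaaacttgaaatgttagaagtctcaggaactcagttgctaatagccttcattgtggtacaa
Nrp2: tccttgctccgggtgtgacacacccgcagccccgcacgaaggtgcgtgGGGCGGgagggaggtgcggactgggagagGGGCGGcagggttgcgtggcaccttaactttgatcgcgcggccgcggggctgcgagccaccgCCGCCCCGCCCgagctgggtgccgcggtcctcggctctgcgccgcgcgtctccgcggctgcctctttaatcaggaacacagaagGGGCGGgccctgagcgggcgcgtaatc
Plxna2: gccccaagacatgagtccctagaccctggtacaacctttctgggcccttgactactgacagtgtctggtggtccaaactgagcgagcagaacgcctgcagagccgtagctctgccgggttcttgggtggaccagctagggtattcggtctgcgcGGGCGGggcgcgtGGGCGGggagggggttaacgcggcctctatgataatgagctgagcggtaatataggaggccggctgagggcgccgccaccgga

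The 3 windows differed in composition. Nrp2 held 5 GC boxes, of which those on the minus strand overlap by 1 base, with 32 CpG dinucleotides and a GC content of 72.4%. Plxna2 held 2 GC boxes, 18 CpG and 62.8% GC. Sema3a held no GC box, 2 CpG and 40.8% GC, against medians of 6 CpG and 52.4% GC over all 32851 promoter entries. None of the 3 held a TATAAA box or the ETS core CGGAAG on either strand. A GC box was found in 32.7% of all windows of this length, TATAAA in 12.4% and CGGAAG in 13.6%. Among the 45 windows of the 32 members with an entry, the shares were 66.7%, 2.22% and 4.44%. The matches describe letters in these windows and say nothing of binding.

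Membrane-bound semaphorins were mostly level, and 7 of the 13 did not pass the filter. Sema4d, the ligand of plexin-B1, was the member passing that differed most, at 63.9 in KO and 44.3 in WT (0.40). Its other probe sets read under 2 in both arrays, so the difference rests on 1 probe set. Sema4a (45.8 against 38.1, 0.19) and Sema4b (68.1 against 65.0, 0.053) differed less. The probe set of Sema4a carries the suffix _x_at, and its other one, below the filter, read 16.5 against 14.3 (0.10). The second probe set of Sema4b was dim and lower in KO, at 3.05 against 5.2 (-0.15). Sema4c, a ligand of plexin-B2, read 157 against 156 (0.0065), level between the arrays.

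Sema6d, a class 6 ligand of A-type plexins, read 227 against 239 (-0.075). Sema5b, which carries thrombospondin repeats, gave -0.074 on its brightest probe set and 0.10 on the next, so its direction varied within a range of 0.18. Sema6c lay just outside the level filter, at 41.2 against 18.9 with a difference of 0.71 that was larger than that of any member inside it except Sema3f in size. Its other probe sets were dim, at 5.38 against 4.92 (0.031) and 3.52 against 0.56 (0.24), so that size rests on 1 probe set. Sema4a was the member closest inside the filter. Sema5a, also below the filter, differed by 0.59 on its brightest probe set (29.6 against 14.3) and was lower in KO on its other 3. Sema7a, the lipid-anchored semaphorin, read 32.6 against 30.0, and Sema4f, Sema4g, Sema6a and Sema6b, all below the filter, differed by between -0.18 and 0.17.

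Slits and robos went both ways. Slit1 read 49.3 in KO and 68.0 in WT (-0.36), and its second probe set was dim and level at 15.2 against 13.9 (0.061). Slit2 read 463 against 475 (-0.036), level between the arrays. Robo1, a receptor of both ligands, read 267 against 219 (0.27), on a single probe set passing the filter, and in its level bin 6.63% of genes were at least as far from 0. Its dimmer probe sets differed by -0.12 and 0.0040. Slit3 (8.98 against 2.05) and Robo2 (0.24 against 4.42) were near background on the probe set that represents each. Such signals give no level that can be compared.

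Of the netrin system, only Dcc and Unc5c passed the filter, and the ligand did not. Ntn1, which encodes netrin-1, read 14.5 in KO and 17.3 in WT. The floor plate markers measured were below the filter too, with summed signals of 44.3 and 34.1 over 6 genes. Dcc read 472 against 594 (-0.32) on its brightest probe set, a difference reached by 2.49% of genes in the brightest level bin. Its second bright probe set read 270 against 244 (0.14), in the opposite direction, and the mean of these was -0.092. A difference in total Dcc RNA is thus not shown, and whether the probe sets follow different transcript forms was not tested.

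Unc5c, a receptor that turns netrin-1 into a repellent signal, read 264 against 228 (0.20) and 99.5 against 93.0 (0.084), higher in KO on both probe sets. Unc5a, Unc5b and Unc5d did not pass the filter, the brightest of them on its own probe set being level at 31.2 against 30.6 (Unc5b).

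The 17 members below the filter divided into 9 higher and 8 lower in KO, with differences from -0.33 to 0.71. Of them, 8 had both signals under 20, where the arrays give little more than background. They were Sema3d, Sema3e, Plxnb3, Slit3, Robo2, Ntn1, Unc5a and Unc5d. Their values do not show that the genes are silent at this stage.

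Other genes of these pathways showed no common direction as lists either. The lists were fixed by name, with earlier results of these data known. Of 19 further family members and cofactors, 10 passed the filter, 4 higher and 6 lower with a median of -0.074, and none was 1.5-fold apart. Flrt1, a gene of the FLRT family that binds Unc5 and robo proteins, read 69.1 against 45.1 (0.48). Rgma, a ligand of the netrin receptor relative neogenin, read 71.5 against 96.2 (-0.36), Dag1, which encodes the slit-binding dystroglycan, 471 against 366 (0.35), and Draxin, a secreted ligand of Dcc, 326 against 418 (-0.35). Robo3, the divergent robo of commissural neurons and named after its value was seen, was below the filter at 3.58 against 24.7 (-1.06). Among these, ligands and receptors alike lay on both sides of 0.

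Semaphorin effectors passed the filter in 20 of 25 cases, 9 higher and 11 lower, with a median of -0.085. Cntn2, the axonal adhesion protein TAG-1, read 34.7 against 59.7 (-0.58), just short of 1.5-fold, and passed through the WT array alone. Mical3, of the MICAL oxidases that take apart actin, read 48.2 against 36.8 (0.28) and passed through the KO array alone. Crmp1, a cytosolic mediator of Sema3a signalling, read 415 against 505 (-0.27), and the cofilin kinase gene Limk1 143 against 116 (0.27). Neuronal markers lay on the same side as the brightest probe set of Dcc and as Slit1, Cntn2 and Crmp1, with 8 of 10 lower, a median of -0.10 and summed signals of 5900 in KO and 6426 in WT. Neural progenitor markers did so too, with 9 of 11 lower, a median of -0.064 and summed signals of 10640 and 11471. Over all genes passing, 50.2% were lower, and the median ran from 0.031 in the dimmest level bin to -0.030 in the brightest. Robo1 (0.27), Unc5c (0.20), Dpysl5 (0.13) and the second bright probe set of Dcc (0.14) lay on the higher side of 0. So did Elavl3 (0.28) and Map2 (0.082) among the neuronal markers. Of the relatives of Dpysl5, Dpysl2 (-0.19) and Dpysl4 (-0.22) were lower and Dpysl3 (0.034) was level. The part of either marker list in the values of these genes was not tested.

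Slit, robo and netrin effectors all passed the filter where measured (19 genes of 21 listed), 12 higher and 7 lower with a median of 0.023. Ablim1, the actin-binding relative of a netrin-pathway gene of worms, read 150 against 96.0 (0.57) and the kinase gene Src 59 against 35 (0.56), passing through the KO array alone. Nck1, an adaptor that binds Dcc, read 192 against 160 (0.24), and Srgap3, a slit-robo GTPase-activating protein, 613 against 728 (-0.24). The small GTPase genes Rac1 (-0.050), Cdc42 (0.023) and Rhoa (0.013) were level.

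**Figure D4:**
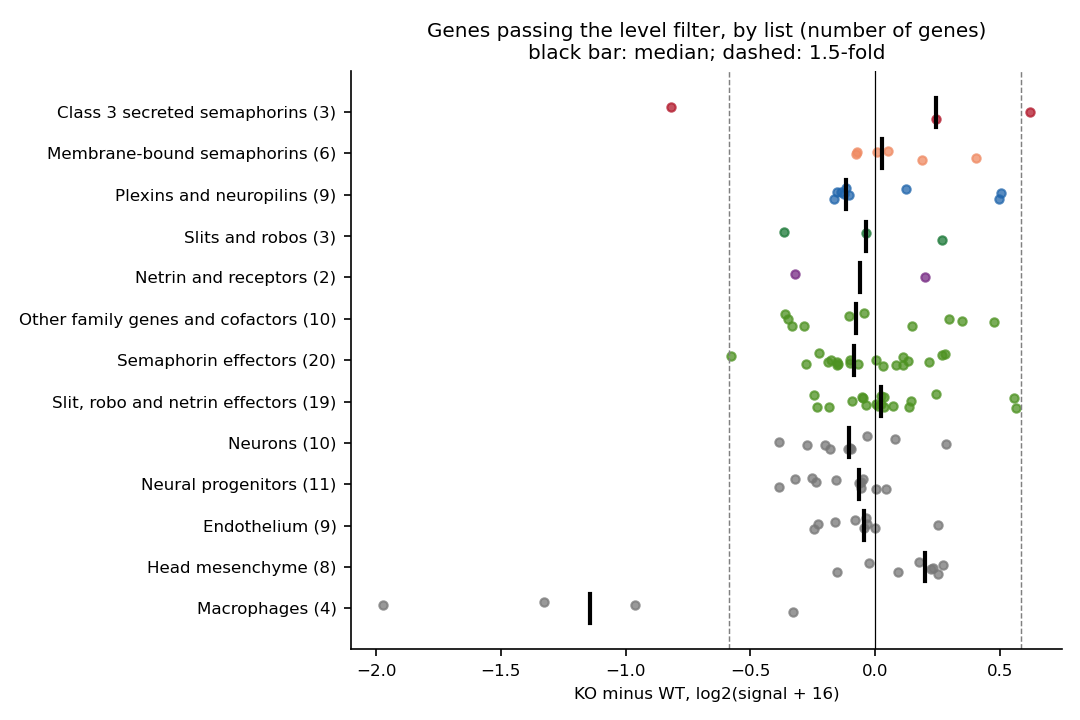
Differences of the genes passing the level filter (KO minus WT, log2(signal + 16)), by role of the guidance genes, by list of other pathway genes and by cell type marker list, with the number of genes in brackets and the median as a black bar. Medians of the guidance and pathway groups lie between -0.11 and 0.25, and the macrophage markers stand far to the left, with a median of -1.14 over the 4 passing, 3 of them through the WT array alone, and of -0.75 over all 11 measured.

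By role, the median difference of members passing was 0.25 for 3 class 3 semaphorins, 0.030 for 6 membrane-bound semaphorins, -0.11 for 9 plexins and neuropilins, -0.036 for 3 slits and robos and -0.060 for the netrin receptors Dcc and Unc5c. The first of these medians is the value of Sema3c alone, between Sema3a and Sema3f. Head mesenchyme markers, a tissue in which Sema3a, Sema3c and neuropilins are also expressed, had a median of 0.20 with 6 of 8 passing higher in KO, and summed signals of 2956 and 2882. Of the neural crest markers, 3 of 6 measured passed, all higher in KO, with a median of 0.19. Ngfr, at 48.8 in KO against 33.9 in WT, passed through the KO array alone, where it is higher. Over the 6 measured, the median was 0.13, 2 were lower, and summed signals were 490 and 442. Sox10 (1.75 against 5.47) and Foxd3 (1.16 against 1.91) were near background. What part these tissues had in the values of Sema3a, Sema3c and Nrp2 was not tested.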

How the data were processed

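The authors deposited intensity values on a linear scale for 45101 probe sets, 1 column for each array, made with Affymetrix Expression Console per the submitters' processing notes; the sources used here do not give its version or summary method. Biotin-labelled cRNA came from 250 ng of total RNA per the labels' protocols. The arrays were brought to a common median (13.2 in each as deposited) and taken as log2(intensity + 16). Symbols came from the platform annotation (34958 probe sets with 1 symbol). The level filter kept genes whose higher array reached the median level of all named genes. The number of arrays, 1 a group, limits precision, so no test was run, and gene calls are fold thresholds of 2 and 1.5. The members and lists were chosen with earlier results of these data known. Of each list of other pathway genes, the 4 with the largest differences among those passing were named. Robo3, genes of the Dpysl family, Rac1, Cdc42 and Rhoa were named besides these, as were single marker genes. Some listed genes were not analysed here. The procedure was tested on simulated data with 1 probe set a gene and shifts, larger than those of any member, put into bright genes only. That test does not cover dim genes, small differences or the choice of probe set. Alternatives covered scaling, pseudocount, filter and probe set choice. Work used Python 3.11.15, numpy 2.4.6, pandas 2.3.3, statsmodels 0.14.6 (loess span 0.3) and matplotlib 3.10.9.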

Additional observations from a re-analysis of the deposited data

How the results depend on the processing

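No paired analysis was possible because there is only 1 array for KO and 1 for WT, which also leaves none to omit. Of the 23 members passing the filter, 18 kept their direction under all 8 alternatives. The exceptions were Sema3f, Sema4b, Sema4c, Sema5b and Plxnc1. The pseudocount cannot turn a sign, nor can probe set choice for a gene with 1 probe set. The count of 18 was thus partly settled in advance. Nrp2 stayed between 0.37 and 0.57 and Plxna2 between 0.34 and 0.58. Values were taken to move when they shifted by more than the SD between probe sets of a gene, divided by the root of the number of genes for a median. Among the values of single members, 27 of 200 moved or reversed. At their smallest, Sema3a fell to 0.32, Sema4d to 0.11 and Robo1 to 0.0040, while Slit1 came to -0.15 and Dcc to -0.092. Sema3f turned to 0.30 with the median of its probe sets and without probe sets ending in _x_at or _s_at, and Sema5a to -0.15 with the median. Members at least 1.5-fold higher numbered 0 at a pseudocount of 64, with the median or mean of probe sets and at the 75th percentile filter, 2 without _x_at and _s_at probe sets and 3 with no filter. Members at least 1.5-fold lower numbered 0 at a pseudocount of 64, with the median or mean of probe sets, without _x_at and _s_at probe sets and at the 75th percentile filter, and 1 was 2-fold lower at a pseudocount of 1. Lower members numbered 20 of 40 with no filter, beside 9039 of 18194 named genes, and 5 of 7 (71.4%) at the 75th percentile. The share of all genes lower at the 75th percentile filter was not computed, and the median over all genes passing it was -0.014. The members' median was 0.0040 with the median of probe sets, 0.0065 with their mean, without _x_at and _s_at, or with the mean of passing probe sets (chosen after seeing the data), and -0.075 at the 75th percentile. The class 3 median was 0.14 at a pseudocount of 64. With the median or mean of probe sets that of plexins and neuropilins was -0.020 and that of other family genes 0.023. The mean gave -0.044 for semaphorin effectors and -0.039 for slit, robo and netrin effectors. The semaphorin effectors were at -0.033 without _x_at and _s_at, and -0.029 with the mean of passing probe sets. Under quantile normalisation and the loess on level, the differences of the 23 members passing moved by less than that SD, and lower members numbered 13, as Sema4c turned from 0.0065 to -0.0081 and -0.0021.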
